A study of Caenorhabditis elegans with 2 samples.

Results

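Of the 346 small nucleolar RNA (snoRNA) genes annotated on chromosomes I to V and X of Caenorhabditis elegans, 216 lay wholly within the bounds of a protein-coding gene. The rule that picks them uses gene positions alone, from Ensembl release 115 (assembly WBcel235, whose coordinates are those of ce11), and no binding value. The other 130 snoRNA genes and all 46890 genes on these chromosomes served as the background. FKH-10 belongs to the forkhead family of transcription factors. Its binding was mapped by ChIP-seq (immunoprecipitation of tagged protein with its DNA, followed by sequencing) in intact L1 larvae of mixed sex. There were 2 biological replicates of 1 group and no second condition, so binding was compared between genes and not between treatments. All animals were of strain OP337, which carries the mutation unc119(ed3) and the transgene wgIs377, a fusion of fkh-10 with TY1, EGFP and FLAG tags together with unc119. The labels do not say which sequence drives the transgene and give the antibody only as fkh-10. Chromatin of all tissues was pooled, so a peak does not show in which cells it arose.

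snoRNAs guide the chemical modification of other RNAs, chiefly ribosomal RNA. Box C/D snoRNAs direct ribose methylation by fibrillarin, and box H/ACA snoRNAs direct pseudouridylation by dyskerin. In animals many snoRNAs are cut out of introns of spliced host transcripts, often those of genes for the translation machinery, and so use the promoter of the host. In C. elegans some snoRNA genes within introns have also been described with promoter elements of their own directly upstream. Whether FKH-10 peaks near hosted snoRNA genes sat at the host promoter or at the snoRNA gene was therefore recorded for each gene.

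The 216 genes lay in 192 hosts, of which 24 held 2 or more and none held more than 4. The host was on the same strand for 183 genes and on the other strand for 33, and 169 genes overlapped no protein-coding exon. There were 4 genes that lay within 2 protein-coding genes at the same time. Gene length ran from 54 to 325 bp, with a median of 127 bp. The annotation was checked against the defining sequence words of the RNA. A box C word (TGATGA) in the first 30 bases together with a box D word (CTGA) in the last 20 was present in 10 of the 216 genes, against 5 of the 130 other snoRNA genes. ACA followed by 3 bases at the annotated end was present in 48 hosted genes, against 10 others. The remaining genes held neither the box C and box D words together nor the ACA at these places. Either box word alone was not counted. Among the remaining genes, smy-2 is by its name a SmY RNA, a class that acts in trans-splicing. The set is therefore called by its annotated biotype.

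The sequences below are the 120 bases directly upstream of hosted snoRNA genes that had a strong FKH-10 summit at their own start, read 5′ to 3′ on the strand of the snoRNA gene from the RefSeq copy of WBcel235. They are shown because recurrent words stand in them at similar places. The first 3 hold both a box A word (GNNNAGTGG) and a box B word (GTTCNANNC), in capitals; box A and box B are the internal promoter elements of tRNA genes, which are read by RNA polymerase III.
M106.6 (chrII:10840197-10840316, plus strand): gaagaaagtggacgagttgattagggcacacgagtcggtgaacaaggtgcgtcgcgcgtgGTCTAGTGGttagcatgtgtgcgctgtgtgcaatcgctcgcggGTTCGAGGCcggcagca
C04G6.12 (chrII:5105232-5105351, minus strand): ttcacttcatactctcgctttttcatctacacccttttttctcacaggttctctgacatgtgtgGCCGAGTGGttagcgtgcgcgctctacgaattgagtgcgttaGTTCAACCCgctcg
T03F7.8 (chrV:11314138-11314257, plus strand): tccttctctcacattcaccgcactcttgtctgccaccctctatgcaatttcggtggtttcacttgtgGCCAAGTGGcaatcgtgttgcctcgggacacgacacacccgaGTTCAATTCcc
In the 3 sequences that follow, capitals mark a word pair, AACNCG and TGTC separated by 5 bases in the strand of the gene, which recurred at a similar distance from the start.
T06D8.11 (chrII:11224062-11224181, plus strand): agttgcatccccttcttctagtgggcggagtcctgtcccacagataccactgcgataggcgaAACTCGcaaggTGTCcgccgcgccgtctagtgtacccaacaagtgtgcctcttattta
C08D8.3 (chrV:8348988-8349107, plus strand): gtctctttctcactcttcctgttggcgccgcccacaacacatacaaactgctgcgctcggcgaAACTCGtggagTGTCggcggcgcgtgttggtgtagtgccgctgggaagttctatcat
ZK994.7 (chrV:8500459-8500578, plus strand): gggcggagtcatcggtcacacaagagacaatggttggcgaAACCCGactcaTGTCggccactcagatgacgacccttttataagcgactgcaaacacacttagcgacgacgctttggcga
C51F7.3 held 2 box B words and no box A word, and Y38F2AR.14 held none of the words upstream of its start.
C51F7.3 (chrV:12303588-12303707, plus strand): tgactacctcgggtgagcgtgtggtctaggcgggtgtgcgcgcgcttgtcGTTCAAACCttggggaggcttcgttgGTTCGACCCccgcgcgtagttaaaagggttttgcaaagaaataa
Y38F2AR.14 (chrIV:2408636-2408755, minus strand): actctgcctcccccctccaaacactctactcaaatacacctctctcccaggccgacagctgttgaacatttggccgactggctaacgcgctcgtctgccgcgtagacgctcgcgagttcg
For contrast, the window of 101 bases around the strongest summit near any hosted gene, at the promoter of the host rps-12, is shown on the strand of the host.
rps-12 (chrIII:5679085-5679185, plus strand): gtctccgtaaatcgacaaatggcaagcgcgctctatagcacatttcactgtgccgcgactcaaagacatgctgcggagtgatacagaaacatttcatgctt
C08D8.3 is also printed as the gene itself, since it is one of the 10 hosted genes with both defining box C/D words, here in capitals.
C08D8.3 (chrV:8349108-8349187, plus strand): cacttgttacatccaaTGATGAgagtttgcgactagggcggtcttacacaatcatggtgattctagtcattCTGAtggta

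The peak lists came as an optimal set of 2602 peaks, a relaxed pooled list of 19924 peaks and 1 list per replicate with 28842 peaks in replicate 1 and 28896 in replicate 2. A summit is the position of highest signal within a peak. Each peak has a signal, a value of the authors whose scale is not given and which has no error of its own, so the signal and rank in each replicate are printed beside it; the replicate lists run on lower scales than the pooled list. The optimal peaks were the 2602 pooled peaks of highest signal, from 37.0 to 457 with a median of 60.7, and 1873 of them (72.0%) overlapped the equally long top lists of both replicates. The lists hold no read counts, so the depth behind a peak is unknown. The 95% intervals on shares are exact (Clopper-Pearson), cover the sampling of genes only and treat each gene as an independent draw. Neighbouring genes can share a peak, so the intervals can be too narrow.

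An optimal FKH-10 summit lay within 500 bp of 27 of the 216 hosted snoRNA genes. This is 12.5% (95% interval 8.4 to 17.7%), against 22 of the 130 snoRNA genes outside protein-coding genes (16.9%, interval 10.9 to 24.5%) and 6.28% of all genes. The intervals of the snoRNA gene classes overlapped, and that of the hosted genes lay above the share of all genes. Many of all genes are longer and so span more sequence. Only 19973 of the 46890 are protein-coding, and the share was not matched for length or biotype, so the comparison can lean either way. Of the bases within protein-coding gene bodies, 1.87% lay as close to an optimal summit. With the relaxed pooled list a summit was within 500 bp of 85 hosted genes (39.4%, interval 32.8 to 46.2%). They did not stand apart from the other snoRNA genes (51 of 130, 39.2%) or from all genes (33.8%), again not matched for length or biotype. Of the bases within protein-coding gene bodies, 17.6% lay as close to a pooled summit, which is below the interval of the hosted genes. The base shares were not matched for gene length either. Of the 216 genes, 58 had only a pooled summit below the optimal threshold and 131 had no summit at that distance. The 27 genes shared 25 peaks, whose signal per gene ran from 39.0 to 237 with a median of 65.5, and the peaks of 23 of the 27 were in the top lists of both replicates. By chromosome the 27 were 6 of 44 on I, 6 of 43 on II and 5 of 44 on III. The others were 4 of 36 on IV, 6 of 39 on V and 0 of 10 on X. A count of 0 of 10 allows a share of up to 30.8% by the exact interval. With the pooled list 6 of the 10 on X had a summit within 500 bp (60%, interval 26.2 to 87.8%). On autosomes 79 of 206 did (38.3%, interval 31.7 to 45.4%). The share of all genes on each chromosome was not counted.

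The 27 genes fell into 3 classes by the position of the summit. In 14 it lay at the start of the snoRNA gene itself, from 100 bp upstream to 50 bp downstream. In 9 it lay in the promoter window of the host, which covers the 1000 bp before the host start and the 200 bp after it. In the other 4 it lay elsewhere. No gene was in both of the first classes when the start of the host gene was used. With other annotated transcript starts of the host, 2 genes with a summit at the snoRNA start, Y71F9AM.7 and smy-2, were in both. The size of the host-promoter class depends on the limit: it held 2 genes at 200 bp and 25 at 1000 bp, and 13 at 500 bp when the start of any annotated transcript of the host was used. The window for the snoRNA start was chosen after the summit positions had been seen, so its counts describe these lists.

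**Figure D1:**
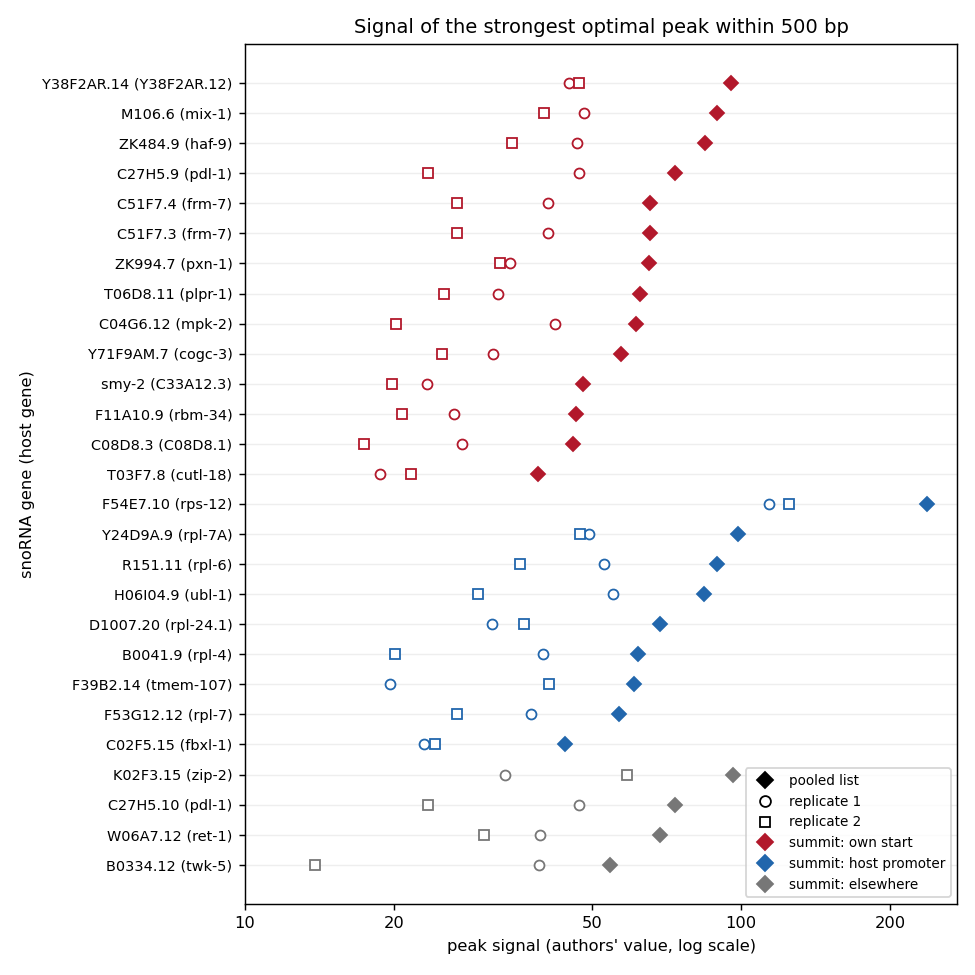
Authors' peak signal (log axis) of the strongest optimal peak within 500 bp of each of the 27 hosted snoRNA genes, with the host in brackets; diamonds are the pooled list, circles replicate 1 and squares replicate 2, and colour gives the position of the summit. Pooled signals run from 39.0 to 237, and F54E7.10 at the rps-12 promoter is the highest in the pooled list and in both replicates.

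At their own start, 14 of 216 hosted genes had an optimal summit (6.48%, interval 3.59 to 10.6%), against 10 of 130 other snoRNA genes (7.69%, interval 3.75 to 13.7%) and 1.09% of all genes. With the pooled list the counts were 33 hosted genes (15.3%, interval 10.8 to 20.8%), 26 other snoRNA genes (20%) and 4.63% of all genes. The intervals of hosted and other snoRNA genes overlapped. Both lay above the share of all genes, which was not matched for biotype. The window was chosen after these summits had been seen, so this is a description only. With the window cut to the 50 bp before the start, 8 hosted genes had an optimal summit there. The summits of the 14 lay between 71 bp before and 41 bp after the snoRNA start, and 13 were upstream of it. The starts of these snoRNA genes were 277 to 16071 bp from the host start, with a median of 1706.5 bp, and only 1 lay in the first intron of its host. Both replicates placed a summit inside the window in all 14 genes, and the replicate summits were a median of 20 bp and at most 51 bp apart. Of their 13 host genes, 1, pdl-1, also had an optimal summit in its promoter window. No annotated tRNA gene lay within 500 bp of these summits or overlapped the 120 upstream bases.

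The strongest summit of this class was at Y38F2AR.14 (chrIV:2408508-2408635, minus strand), in intron 5 of Y38F2AR.12. Its pooled signal was 95.2 (rank 508), with 44.9 (rank 722) in replicate 1 and 47.2 (rank 480) in replicate 2. The pooled summit lay 22 bp upstream of the snoRNA start and the replicate summits 24 and 34 bp upstream, while the host start was 3785 bp away. M106.6 (chrII:10840317-10840391, plus strand) lies in intron 13 of mix-1, which encodes a condensin subunit. Its signal was 89.6 in the pooled list (rank 576), 48.2 in replicate 1 (rank 610) and 39.96 in replicate 2 (rank 712). The summit was 23 bp upstream of the snoRNA start and 16048 bp into the host. These genes ranked among the 1000 highest peaks in both replicates.

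ZK484.9 (chrI:6082738-6082805, minus strand) lies on the strand opposite to haf-9, an ABC transporter gene, in intron 5. Its signal was 84.6 in the pooled list (rank 670), 46.6 in replicate 1 (rank 660) and 34.5 in replicate 2 (rank 976), with summits 16, 25 and 26 bp upstream of the start. C27H5.9 (chrII:7184010-7184078, minus strand) lies opposite to pdl-1, in its first intron, 277 bp from the host start. Its signal was 73.7 in the pooled list (rank 916), 47.1 in replicate 1 (rank 641) and 23.4 in replicate 2 (rank 1837), so the replicates differed more here than at ZK484.9. A separate optimal peak with a signal of 80.7 lay 914 bp upstream of the pdl-1 start. Summits at the own start were present in 4 of the 33 genes with a host on the other strand (12.1%, interval 3.4 to 28.2%) and in 10 of the 183 with a host on the same strand (5.46%, interval 2.65 to 9.82%), with overlapping intervals.

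C51F7.4 and C51F7.3 stand in a row in frm-7, a FERM-domain gene, and shared 1 peak with a signal of 65.5 in the pooled list (rank 1158), 40.8 in replicate 1 (rank 891) and 26.8 in replicate 2 (rank 1499). The summit was 41 bp inside C51F7.4 (chrV:12303599-12303693, plus strand), which overlaps a protein-coding exon, and 68 bp upstream of C51F7.3 (chrV:12303708-12303783, plus strand). One summit therefore accounts for both genes. The remaining 8 genes of the class had pooled signals of 39.0 to 65.2. ZK994.7, in the peroxidasin gene pxn-1, had 65.2 with 34.1 in replicate 1 and 32.7 in replicate 2. T06D8.11, in plpr-1, had 62.6, and C04G6.12, opposite to the MAP kinase gene mpk-2, had 61.4. Y71F9AM.7, in the Golgi complex gene cogc-3, had 57.3, and smy-2, in C33A12.3, had 48.1. F11A10.9, in the RNA-binding protein gene rbm-34, had 46.4, C08D8.3, in C08D8.1, had 45.8, and T03F7.8, opposite to the cuticlin-like gene cutl-18, had the lowest at 39.0. Other annotated starts lay near several of these summits. The Y71F9AM.7 summit was 106 bp downstream of another transcript start of cogc-3, and the smy-2 summit was 327 bp upstream of one of C33A12.3 and 968 bp upstream of the start of C33A12.4. Starts of other non-coding RNA genes lay 28 and 126 bp from the T06D8.11 summit (T06D8.17 and T06D8.13), 98 bp from the T03F7.8 summit (T03F7.14) and 118 bp from the ZK484.9 summit (ZK484.10), so in these the summit cannot be assigned to the snoRNA gene alone.

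**Figure D2:**
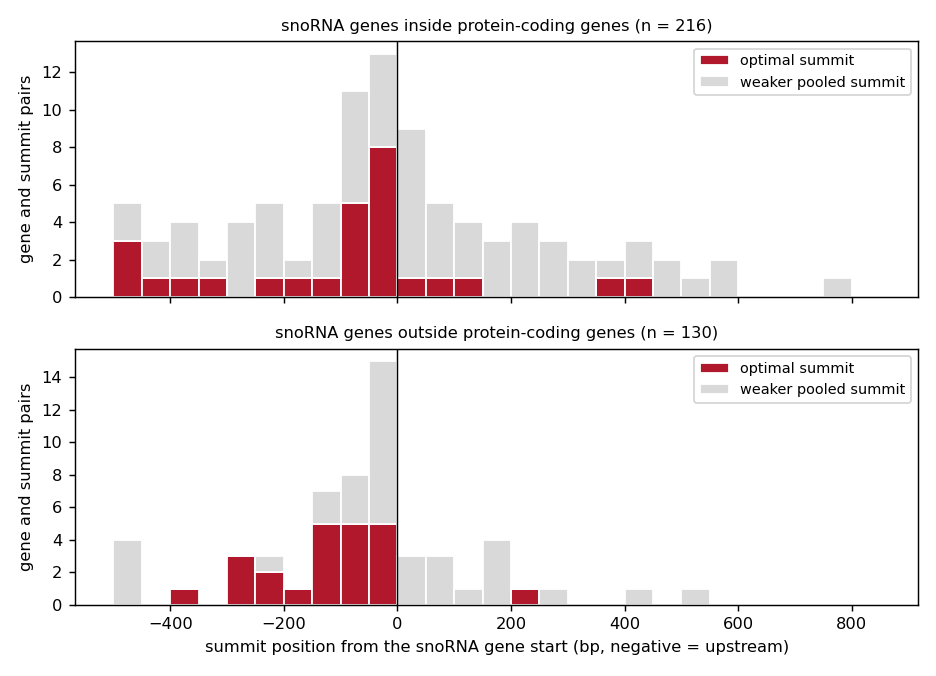
Summit positions relative to the start of the snoRNA gene (bp, negative upstream) for gene and summit pairs within 500 bp, with hosted genes above and the other snoRNA genes below; red is the optimal list and grey the weaker pooled summits, stacked in bins of 50 bp. In the upper panel the optimal summits are most frequent in the 100 bp upstream of the start. The 9 optimal summits between 491 and 128 bp upstream lay in host promoter windows, 6 of them also in that of another protein-coding gene.

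The upstream words printed above were searched on both strands in the 120 bases before every gene start; they were chosen after reading these sequences, so their counts are descriptions. Among the 14 genes, 6 held box A, 6 held box B, 4 held both and 4 others held the word pair, so that 12 (85.7%) held at least 1 of them. All of these matches were on the strand of the snoRNA gene. Box A began 60 to 52 bp upstream of the snoRNA start, and the pair began 80 to 57 bp upstream. Box B was found 70 to 10 bp upstream. The genes with box A and box B were ZK484.9, C04G6.12, M106.6 and T03F7.8, those with the pair were T06D8.11, smy-2, C08D8.3 and ZK994.7, and C27H5.9 and Y71F9AM.7 held box A alone. F11A10.9 and C51F7.3 held box B alone. When the window was carried 10 bp into the gene, 9 rather than 8 of the 14 held box A or box B, the added gene being Y38F2AR.14.

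Among the 19 hosted genes whose only summit at the start was a weaker pooled one, 10 (52.6%) held 1 of the 3 words. Among the 183 hosted genes with no summit there, 31 did (16.9%), and among the 9 with a host promoter summit 2 did. These classes were defined by the summit, and the words were chosen after reading upstream sequences of the genes with an optimal one. Their highest share in that class was therefore built in, and no link between word and summit can be drawn from it. Of all hosted genes 53 of 216 held a word (24.5%), and of the other snoRNA genes 48 of 130 did (36.9%). Among the other snoRNA genes with an optimal summit at their own start, 6 of 10 held a word (60%). The words were therefore not particular to hosted genes. Of protein-coding genes 5.98% held a word and of all genes 6.02%. Singly, box A stood upstream of 3.02% of protein-coding genes, box B of 2.95% and the pair of 0.115%. The words are matches of letters and not sites of any measured factor.

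**Figure D3:**
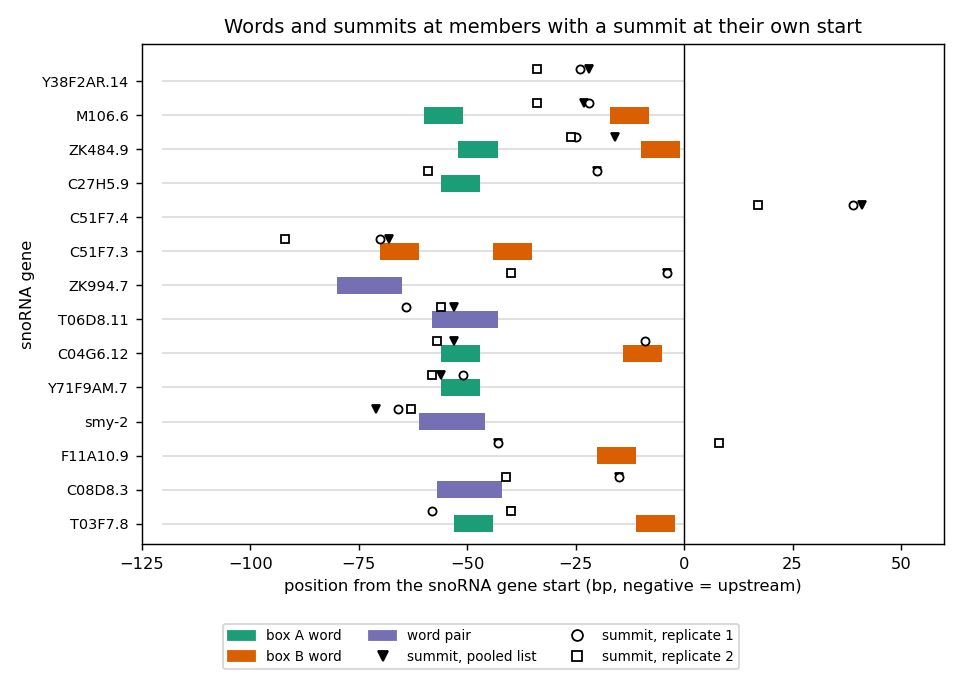
Positions of the upstream words (bars) and of the summits (markers) at the 14 hosted snoRNA genes with an optimal summit at their own start, in bp from the snoRNA start. The 6 box A words begin between 60 and 52 bp upstream, and in all but C51F7.4 the pooled summit lies upstream of the start.

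Around the summits themselves, in windows reaching 50 bp to each side, the stricter box B word GTTCGANNC was in 4 of the 13 distinct own-start summits (30.8%) and in 0 of the 9 host-promoter summits, against 2.04% of all optimal summits. The forkhead-type word TGTTTAC was in 0 of the 25 summits near hosted genes, against 1.61% of all optimal summits, and GAGAGAGA was in 0 of 25, against 6.69%. CACGTG was in 1 of 25 and TGATAA and TAATTA in 0. A count of 0 says only that these letters are not in these windows. GC content averaged 56% at the own-start summits and 48.5% at the host-promoter summits, against 45.3% over all optimal summits.

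At the host promoter, the summits of the 9 genes lay 325 to 63 bp upstream of the host start, with a median of 208 bp, and 491 to 128 bp upstream of the snoRNA gene. All 9 genes were on the strand of the host. They started 33 to 282 bp from the host start, with a median of 166 bp; the class requires a short distance, since the summit had to be near both. The first intron held 5 of them. Of the 9 hosts, 6 are ribosomal protein genes (rps-12, rpl-7A, rpl-6, rpl-24.1, rpl-4 and rpl-7), and ubl-1 encodes a ubiquitin-like protein fused to a ribosomal protein. The replicate summits were a median of 26 bp and at most 73 bp apart, and 8 of the 9 peaks were in the top lists of both replicates. In 6 of the 9 the summit also lay in the promoter window of another protein-coding gene, so the promoter cannot be assigned to the host alone.

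F54E7.10 (chrIII:5679378-5679509, plus strand), in the first intron of rps-12, had the highest signal of the hosted genes with a summit within 500 bp. It was 237 in the pooled list (rank 29), 114 in replicate 1 (rank 34) and 125 in replicate 2 (rank 22). The summit was 163 bp upstream of rps-12, 243 bp upstream of the snoRNA gene and 130 bp upstream of the divergent gene ska-3. Y24D9A.9 (chrIV:4390088-4390308, minus strand), in rpl-7A, had 98.6 (rank 466), with 49.4 (rank 576) in replicate 1 and 47.3 (rank 476) in replicate 2. Its summit lay 63 bp upstream of rpl-7A and 191 bp upstream of set-21, the neighbour on the other side. R151.11 (chrIII:7208613-7208744, plus strand), in rpl-6, had 89.3 (rank 582), with 53.0 (rank 487) in replicate 1 and 35.9 (rank 902) in replicate 2, and its summit was 491 bp upstream of the snoRNA gene in every list.

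H06I04.9 (chrIII:3068486-3068562, plus strand), in ubl-1, had 84.1 (rank 682), with 55.04 (rank 452) in replicate 1 and 29.4 (rank 1280) in replicate 2. D1007.20 (chrI:4585249-4585409, plus strand), in rpl-24.1, had 68.7 (rank 1064), with 31.4 (rank 1425) in replicate 1 and 36.5 (rank 857) in replicate 2, and its summit also lay 334 bp upstream of another ribosomal protein gene, rps-10. The replicates ranked the ubl-1 peak less alike than the rps-12 peak. The remaining 4 genes had lower pooled signals. B0041.9 in rpl-4 had 62.1, F53G12.12 in rpl-7 had 56.7 and C02F5.15, which lies in both fbxl-1 and rfs-1, had 44.2. F39B2.14 had 60.9 and lies in tmem-107, a ciliary transition zone gene, but its summit was also 390 bp upstream of rps-26. In F39B2.14 the replicates differed most of the class, with 19.6 (rank 3116) in replicate 1 and 40.9 (rank 674) in replicate 2.

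**Figure D4:**
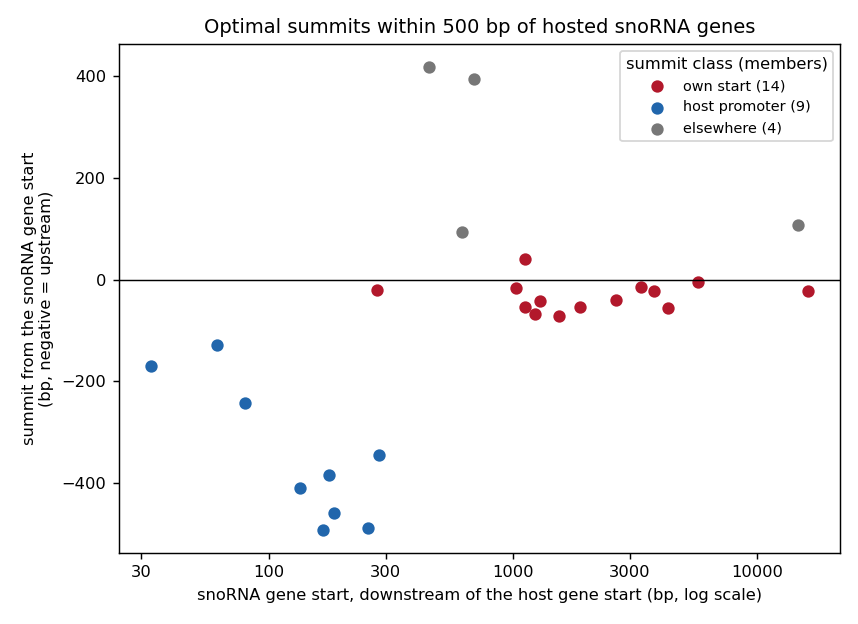
Distance of the snoRNA gene from the start of its host (x, bp, log axis) against the position of the summit from the snoRNA start (y, bp, negative upstream) for the 27 hosted genes with an optimal summit within 500 bp. Host-promoter genes all start within 282 bp of the host start, and own-start summits stay within 71 bp of the snoRNA start at host distances of 277 to 16071 bp.

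In the 4 genes of neither class the summit lay inside or downstream of the snoRNA gene. K02F3.15 (chrIII:833435-833609, plus strand), in the transcription factor gene zip-2, had 96.4 (rank 492), with 33.4 (rank 1277) in replicate 1 and 58.9 (rank 249) in replicate 2. Its summit was 417 bp downstream of the snoRNA start and 236 bp upstream of another annotated transcript start of zip-2. C27H5.10 (chrII:7184419-7184492, minus strand) was counted only through the summit at the start of C27H5.9, 321 bp away. W06A7.12 (chrV:14832594-14832711, minus strand), in the reticulon gene ret-1, had 68.5 (rank 1071), with 39.3 (rank 971) in replicate 1 and 30.4 (rank 1213) in replicate 2. Its summit lay inside the snoRNA gene, 108 bp from its start, and replicates placed it at 100 and 107 bp. This summit was also 982 bp upstream of another annotated transcript start of ret-1. A weaker pooled summit with a signal of 26.9 lay 93 bp upstream of the W06A7.12 start. B0334.12, opposite to the potassium channel gene twk-5, had 54.3, with 39.1 (rank 984) in replicate 1 and 13.8 (rank 3678) in replicate 2. W06A7.12 and C51F7.4 were the 2 hosted genes with an optimal summit inside the gene itself.

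Below the optimal threshold, 19 hosted genes had a pooled summit at their own start that was weaker, with signals of 13.5 to 35.1 and a median of 26.9. Of the 58 genes near weaker summits alone, the 5 of highest signal were C41C4.16 in ulp-4, Y37E3.20 in pcyt-2.1, Y43F8C.22 in Y43F8C.7, T24H7.6 in T24H7.2 and F07A11.15 opposite to din-1. C41C4.16 had 36.3 (18.9 in replicate 1 and 13.9 in replicate 2), just under the lowest optimal signal, with a summit 495 bp beyond the gene. Y37E3.20 had 35.1 (26.8 and 12.7), 56 bp upstream of its start, and Y43F8C.22 had 34.3 (17.8 and 16.5), 55 bp upstream. T24H7.6 had 32.7 (19.8 and 9.39), 16 bp upstream, and F07A11.15 had 32.4 (25.02 and 6.59), 47 bp inside the gene. In 4 of the 5 the summit was at the own start, and in all 5 replicate 1 gave the higher signal.

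Just inside the limit of 500 bp were F53G12.12 at 487 bp and R151.11 at 491 bp, with signals of 56.7 and 89.3. Just outside were C06A1.9, 513 bp from a summit with a signal of 429 at the promoter of cdc-48.1, and F56A11.14 in efn-4, 550 bp from one with 45.5.

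Because most hosted genes lie far from the host start, host promoters were also counted at any distance. An optimal summit was in the promoter window of 42 of the 192 hosts (21.9%, interval 16.2 to 28.4%), against 6.38% of all protein-coding genes. The count was 32 with a window of 500 bp upstream to 100 bp downstream, and 51 with the start of any annotated transcript. Whether the summits also lay in promoter windows of neighbouring genes was not counted for all 42 hosts. The hosted snoRNA genes of the 42 hosts numbered 56, and in 33 of these hosts the nearest one lay more than 500 bp from the summit. Ribosomal protein hosts had a promoter summit in 11 of 13 (84.6%, interval 54.6 to 98.1%), all except rpl-2 and rpl-26, against 44 of the 68 ribosomal protein genes without a hosted snoRNA gene (64.7%, interval 52.2 to 75.9%). These intervals overlapped. By symbol prefix, the other hosts with a promoter summit were 2 of 3 translation factor genes, 1 of 2 chaperone genes, 1 of 1 splicing factor gene (prp-8) and 27 of 173 in no listed class (15.6%, interval 10.5 to 21.9%). The prefixes miss some splicing factor genes, which fall in no listed class, among them prpf-4 with a promoter summit and uaf-1 and uaf-2 without one. The ribosomal protein fusion gene ubl-1, with a promoter summit, also falls in no listed class. The hosts in no listed class are therefore mixed, and their interval lay above the share of all protein-coding genes.

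The highest host signals, named here after they had been seen, belonged to cdc-48.1, rpl-15, rps-12, hsp-1 and iff-2. The AAA ATPase gene cdc-48.1 had 429 in the pooled list, 219 in replicate 1 and 209 in replicate 2. For rpl-15 the values were 266, 142 and 119, and its nearest snoRNA gene was 568 bp from the summit. The chaperone gene hsp-1 had 236, with 158 and 77.9, and the translation factor gene iff-2 had 218, with 110 and 109. Ribosomal protein hosts held 19 snoRNA genes, of which 17 had a summit in the host promoter window, 6 within 500 bp and 0 at their own start, which allows a share of up to 17.6%. All 14 own-start summits were in the 188 genes of hosts in no listed class (7.45%, interval 4.13 to 12.2%), and these intervals overlapped.

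For the proteins that act with snoRNAs, the list was chosen with earlier results of these data known. It held 10 genes, all matched in the annotation. An optimal summit was in the promoter window of 4 (40%, interval 12.2 to 73.8%), against 6.38% of all protein-coding genes. They were fib-1, which encodes fibrillarin, nol-58 and snu-13, core proteins of box C/D particles, and ruvb-2, an ATPase of particle assembly. Signals were 84.0 at fib-1 (45.5 in replicate 1 and 38.9 in replicate 2), 68.3 at nol-58 (28.52 and 37.6), 52.8 at ruvb-2 (25.8 and 26.1) and 49.8 at snu-13 (22.8 and 22.0), with summits 307 to 101 bp upstream of the gene start. The other 6 had no optimal summit: the box C/D gene nol-56, the box H/ACA genes dkc-1, garr-1, Y48A6B.3 and nola-3, and ruvb-1. Weaker pooled summits brought the count to 8 of 10, with nola-3 and ruvb-1 having none, against 28.0% of all protein-coding genes with a pooled promoter summit. The top list of replicate 2 alone gave 7 of the 10 and that of replicate 1 gave 4.

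Among the 130 snoRNA genes outside protein-coding genes, 22 had an optimal summit within 500 bp. The 3 highest were W06H8.17 with 171 (102 in replicate 1 and 70.3 in replicate 2), M7.15 with 127 (68.7 and 54.8) and C26C6.13 with 92.7 (52.2 and 50.3). Their summits lay 221, 137 and 377 bp upstream of the snoRNA start, outside the own-start window. The highest signal at any position was 237 near hosted genes, against 171 near the other snoRNA genes, and the highest at the own start was 95.2 in hosted genes, against 76.1 in the others (ZK20.9).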

How the data were processed

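FKH-10 ChIP-seq peaks from whole L1 larvae, 2 biological replicates of 1 group taken from the labels, were read from the ce11 lists deposited by the authors. Each list is in narrowPeak format, with a deposited signal per peak, a deposited −log10 q and a summit offset. Per the text files deposited with the samples, the lists derive from alignments and a control. The aligner, the peak caller, the peak threshold and their versions: not given in the sources used here. Their effect on peak number and summit position was not tested. The ce10 lists and −log10 q were not used.

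The summit is the peak start plus the offset, given 1-based. Genes came from Ensembl release 115 and sequence from the RefSeq copy of WBcel235, with Python 3.11.15, numpy 2.4.6, scipy 1.17.1 and matplotlib 3.10.9. Each gene was joined to optimal and pooled summits within 500 bp. The optimal list was checked to be the 2602 pooled peaks of highest signal. No test between conditions is possible and no p-value is given; shares have exact 95% binomial intervals. The code was tested on simulated data with planted summits, all of which were recovered.

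The hosted genes, gene lists, words and rules were chosen with earlier results of these data known. Named in full are the 10 genes or gene clusters of highest signal, each gene with a summit inside it, the 5 highest near pooled summits alone, the 2 genes on each side of 500 bp, the 3 highest other snoRNA genes and each snoRNP protein gene with a promoter summit. Alternatives changed the replicates, peak set, distance, use of intervals, definition of a hosted gene, clustering and promoter window.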

Additional observations from a re-analysis of the deposited data

How the results depend on the processing

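Of the alternative values for counts and peak signals, 56 kept within 1.5 times the value reported or within the spread of the replicates and 34 moved further; most of the latter are signals in single replicates, whose lists run on lower scales. Hosted genes near an optimal summit numbered 24 to 28 with 1 replicate left out, 25 as clusters and 44 at 1000 bp. Those near a pooled summit numbered 83 to 90 with 1 replicate left out, 80 as clusters, 56 at 200 bp and 55 by peak interval. Host-promoter genes were 8 with either replicate left out, 2 at 200 bp and 25 at 1000 bp. Genes with a summit inside were 3 with either replicate left out, 18 by peak interval and 1 when genes overlapping an exon were left out. Own-start genes, an alternative set chosen after seeing the data, numbered 14 to 15 with 1 replicate left out, 9 with the 1301 optimal peaks of highest signal and 8 with the window cut to the 50 bp before the start. With box A or box B upstream there were 8, 8 and 9 in other windows.

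Other snoRNA genes numbered 22 to 23 with 1 replicate left out and 7 with the 1301 highest peaks, where hosted genes numbered 19. Host genes with a promoter summit numbered 37 to 44 with 1 replicate left out, 32 with the shorter promoter window and 51 with any annotated transcript start. The snoRNP protein genes were 4 to 7 with 1 replicate left out and 2 with the 1301 highest peaks. All genes numbered 2858 to 2955 with 1 replicate left out, 1590 with the 1301 highest peaks and 1899 by peak interval. No paired analysis was possible because the study has 1 group. Depth is unknown, and with 2 replicates no error of a signal was estimated.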
